A study of Mus musculus with 4 samples.

Results

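Dlk1, its 3 RNA-coding neighbours Meg3, Rian and Mirg, and 6 imprinted genes of other loci (Igf2, H19, Peg3, Ndn, Plagl1 and Cdkn1c) were followed across 4 RNA-seq libraries of mouse brain CD11b+ cells. The 10 genes were taken by symbol from the 55471 genes of the deposited count table. The set was chosen by the counts themselves: it was built around Dlk1 because Dlk1 was high in library 4 and low in the other 3 libraries. The Dlk1 pattern is therefore described here without a test. All libraries belonged to 1 group: mice of 10 to 13 weeks were given PLX5622, a drug that blocks CSF1R, the receptor kinase that microglia need to survive, for 7 days and were then kept off the drug for 10 days, 17 days in all, before CD11b+ cells were isolated on magnetic beads. Each library was built from 300 ng of total RNA after poly(A) selection with a strand-marking kit. No untreated group was analysed here, so no effect of the drug can be read from these values. Whether the libraries stem from separate animals is not labelled, so a p-value here refers to the spread among these samples alone, and that spread may be technical. The libraries held 23036202 to 24487418 counts. They are named by their labelled numbers, which carry no order.

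Genomic imprinting is the expression of a gene from only the maternal or only the paternal chromosome, set by DNA methylation that is laid down in the germ line and kept by factors such as ZFP57, TRIM28 and DNMT1. Imprinted genes lie in clusters under shared control regions, and many of them regulate fetal growth, fall in expression after birth, and persist in selected adult cell types. Igf2 is a textbook exception in the brain, being transcribed from both alleles in the choroid plexus and leptomeninges of the mouse. Which allele was transcribed was not measured here, since the counts are summed over both.

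In the Dlk1-Dio3 cluster on chromosome 12, Dlk1 is expressed from the paternal chromosome and the long RNAs Meg3, Rian and Mirg from the maternal one. Dlk1 encodes a transmembrane protein with EGF repeats, related to Notch ligands, whose shed ectodomain inhibits adipocyte differentiation. The promoters of Dlk1 and Meg3 are shown because these neighbouring genes had different profiles over the libraries, and those of Peg3 and Plagl1 because these unlinked genes had similar ones. Each is 250 bases before and 50 bases after a transcription start in RefSeq on GRCm38.p6, read 5′ to 3′ on the gene's strand, with CpG dinucleotides in capitals. The windows are chr12:109452573-109452872 (plus strand) for Dlk1, chr12:109540746-109541045 (plus strand) for the first of 2 Meg3 starts, chr7:6730370-6730669 (minus strand) for Peg3 and chr10:13090582-13090881 (plus strand) for Plagl1.
Dlk1 promoter: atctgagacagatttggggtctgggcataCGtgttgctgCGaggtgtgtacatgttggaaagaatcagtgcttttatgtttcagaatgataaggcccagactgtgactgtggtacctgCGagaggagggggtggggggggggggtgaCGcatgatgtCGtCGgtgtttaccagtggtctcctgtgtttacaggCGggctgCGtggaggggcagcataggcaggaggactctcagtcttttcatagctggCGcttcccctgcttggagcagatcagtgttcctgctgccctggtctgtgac
Meg3 promoter: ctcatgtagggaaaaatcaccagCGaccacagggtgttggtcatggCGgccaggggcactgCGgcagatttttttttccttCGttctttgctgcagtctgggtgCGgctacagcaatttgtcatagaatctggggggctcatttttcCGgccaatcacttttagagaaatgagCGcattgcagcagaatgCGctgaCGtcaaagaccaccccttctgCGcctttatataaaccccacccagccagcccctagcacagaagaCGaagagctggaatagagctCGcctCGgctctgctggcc
Peg3 promoter: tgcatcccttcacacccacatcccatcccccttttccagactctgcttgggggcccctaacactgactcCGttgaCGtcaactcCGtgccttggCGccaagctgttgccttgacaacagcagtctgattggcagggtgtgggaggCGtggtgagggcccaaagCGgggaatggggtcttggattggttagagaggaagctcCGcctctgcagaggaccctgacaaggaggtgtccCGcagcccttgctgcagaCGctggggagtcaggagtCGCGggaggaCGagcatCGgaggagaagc
Plagl1 promoter: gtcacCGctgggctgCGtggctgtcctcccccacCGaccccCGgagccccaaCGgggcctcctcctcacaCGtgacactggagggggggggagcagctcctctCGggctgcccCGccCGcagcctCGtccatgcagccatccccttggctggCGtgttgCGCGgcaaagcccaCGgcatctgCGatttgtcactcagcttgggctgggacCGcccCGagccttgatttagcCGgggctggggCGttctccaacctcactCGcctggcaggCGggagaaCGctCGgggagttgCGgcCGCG

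The Dlk1 window held 9 CpG, and 45.8% of all 32851 RefSeq promoter windows of the same length held as many or more, with a median of 7. Meg3 and Peg3 held 13 CpG each, a number reached by 37.9% of windows, and Plagl1 held 26, reached by 16.9%. Short motifs were searched on both strands: TGCCGC, the hexamer bound by ZFP57 when methylated, GGGCGG, the GC box, TATAAA, the TATA box, and CCAAT. No motif contains another. TGCCGC occurred 1 time in the Meg3 window and 1 time in the Plagl1 window, and 11.6% of all windows held it. TATAAA occurred 2 times in the Meg3 window, 1 time on each strand in overlapping bases of a single stretch, against 13.6% of windows with any. CCAAT occurred 2 times in the Peg3 window and 1 time in the Meg3 window, with 37.4% of windows holding it, and GGGCGG occurred 2 times in the Plagl1 window, with 35.7% of windows holding it. None of these motifs occurred in the Dlk1 window. The Peg3 window also contains the annotated start of Usp29, which is transcribed from the opposite strand.

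Meg3, Rian and Mirg are host transcripts for small RNAs, and the mature miRNAs below, from RefSeq, show 1 product of each, with the seed (bases 2 to 8) in capitals.
miR-770-5p in Meg3: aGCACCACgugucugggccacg
miR-370-3p in Rian: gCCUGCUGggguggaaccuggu
miR-410-3p in Mirg: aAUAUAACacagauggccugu

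No seed was shared among these 3 miRNAs. The 2 hairpin genes within Meg3, the 3 within Rian and the 14 within Mirg had 0 counts in every library. Libraries made from poly(A) RNA and counted by gene do not measure mature miRNAs, so these zeros say nothing of the miRNAs themselves.

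Dlk1 was detected in all libraries and was abundant in 1 of them. Dlk1 (ENSMUSG00000040856, chr12:109452823-109463336, plus strand) had 24, 45, 11 and 616 counts in libraries 1 to 4. As TMM-scaled CPM, which are counts of a gene per 1e+06 counts of its library after correction for composition, these were 0.979, 1.94, 0.484 and 24.4. Library 4 stood 12.6-fold above library 2, the next highest (95% exact binomial counting interval 9.29 to 17.4), and 50.5-fold above library 3, the lowest (28.0 to 101.7). The mean of 6.96 ± 11.7 CPM (SD, n = 4) had an SD above the mean, and without library 4 it was 1.14 CPM. All 4 counts lay above the floor of 3 counts, which corresponded to 0.119 to 0.132 CPM. Intervals and floors cover counting error only. In bulk libraries, more cells that express a gene and more RNA per cell cannot be told apart.

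**Figure D1:**
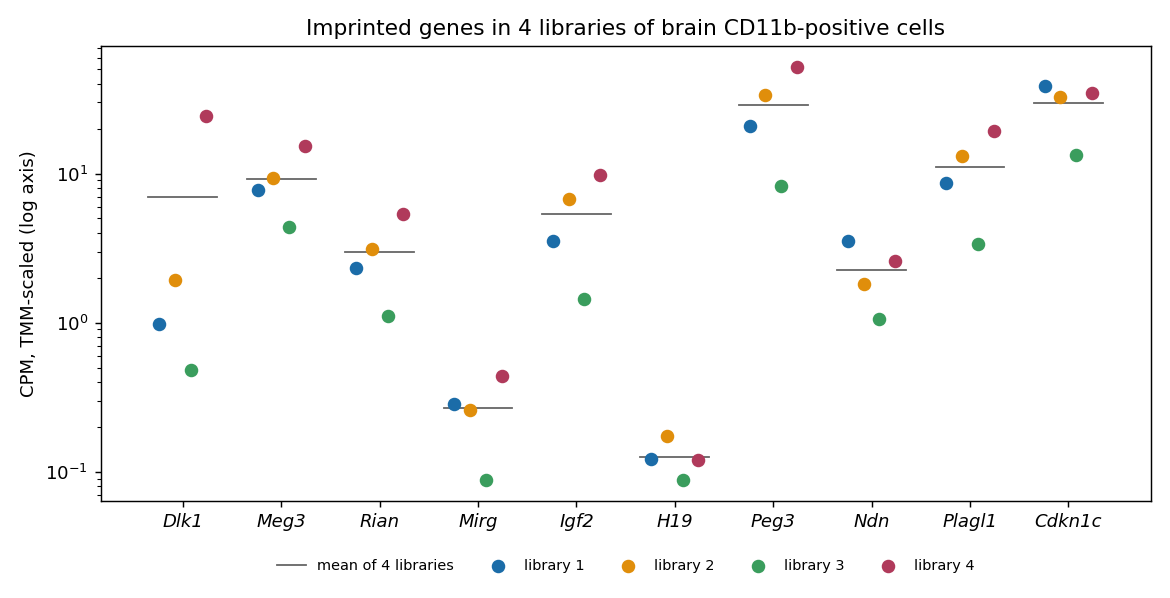
TMM-scaled CPM (log axis) of the 10 imprinted genes, with 1 point per library and a bar at the mean of the 4 libraries. Dlk1 had 24.4 CPM in library 4 and 0.484 to 1.94 CPM in the other libraries, and every gene had its lowest value in library 3.

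The maternally expressed neighbours of Dlk1 had smaller ratios between libraries. Meg3 (chr12:109541001-109571726, plus strand), a long non-coding RNA, had 7.71, 9.29, 4.4 and 15.4 CPM in libraries 1 to 4, a mean of 9.2 ± 4.61 (SD, n = 4). Its highest library was 3.5-fold above its lowest. Rian (chr12:109603940-109661716, plus strand), which carries clusters of C/D small nucleolar RNAs, had 2.33, 3.11, 1.1 and 5.36 CPM and a highest-to-lowest ratio of 4.87. Library 4 was the highest and library 3 the lowest for both, the same ends as for Dlk1. The spread between libraries was tested for each gene against that of genes of similar level, by an edgeR goodness of fit over 14112 genes with Benjamini-Hochberg adjustment. Neither passed the threshold of 0.05, with an adjusted p of 0.71 for Meg3 and 0.627 for Rian.

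Mirg (chr12:109729764-109749460, plus strand), the host of a large miRNA cluster, was near the limit of counting. It had 7, 6, 2 and 11 counts in libraries 1 to 4 and did not pass the filter on low counts. The ratio of its highest to its lowest library, 4.96, had a counting interval of 1.08 to 46.0. From Dlk1 to Dio3 (chr12:109452823-110281097), 116 genes were listed, of which 103 had 0 counts in every library. The 2 other protein-coding genes of the cluster were almost silent: Rtl1, a retrotransposon-derived gene of the paternal chromosome, had 1 count in all, and Dio3, a thyroid hormone deiodinase, had 1 count each in libraries 3 and 4. The 67 miRNA genes of the interval had 0 counts and its 23 small nucleolar RNA genes had 1 count.

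Within library 4 the relation between Dlk1 and Meg3 was the reverse of that in the other libraries. Per kilobase of exon, Dlk1 stood at 0.406, 0.669 and 0.352 of the Meg3 level in libraries 1 to 3 and at 5.08 times it in library 4. The ratio of Rian to Meg3 was 0.299, 0.332, 0.248 and 0.345 over libraries 1 to 4, a 1.39-fold range. The proportion of Dlk1 to Meg3 spanned 14.4-fold over the same libraries. These ratios are free of library scaling.

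Igf2 and H19 form the second imprinted pair, on distal chromosome 7. Igf2 (chr7:142650766-142666816, minus strand), a paternally expressed fetal growth factor, had 3.55, 6.74, 1.45 and 9.84 CPM in libraries 1 to 4, with a mean of 5.4 ± 3.68 (SD, n = 4). The highest library was 6.78-fold above the lowest, and the adjusted p of 0.146 (edgeR goodness of fit) did not pass. The level of Igf2 is uncertain: 62.8% of its exonic bases are shared with Gm49394, a same-strand gene annotated over it that had 0, 3, 0 and 3 counts. Reads that fit both genes may not have been counted for either. H19 (chr7:142575529-142578143, minus strand), the maternally expressed RNA of the pair, had 3, 4, 2 and 3 counts. It was at the counting floor in every library, so no fold is given. Ins2, the insulin gene beside them, had 54, 32, 3 and 35 counts, with library 3 again the lowest.

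Peg3, Plagl1 and Ndn encode nuclear proteins and are expressed from the paternal chromosome. Peg3 (chr7:6703892-6730431, minus strand), a zinc-finger protein, had 514, 786, 188 and 1315 counts in libraries 1 to 4, or 21, 33.9, 8.28 and 52.2 CPM. Its mean was 28.8 ± 18.8 CPM (SD, n = 4), and library 4 stood 1.54-fold above library 2 and 6.31-fold above library 3. Peg3 was the 1 gene among the 7 tested besides Dlk1 whose spread passed the threshold (adjusted p = 0.000201, edgeR goodness of fit), where 3.28% of all 14112 tested genes did. It did not pass without library 3 (adjusted p = 0.153, with 0.716% of all genes passing), without library 4 (0.12, with 1.82% passing) or in the quasi-likelihood variance test (0.889, with 0.0% passing). At an unadjusted p under 0.05, 4 of the 7 passed, as did 9.57% of all tested genes, the quasi-likelihood test gave 0 of them after adjustment, and 0 were dispersion outliers in DESeq2, as were 0.0323% of all genes.

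Plagl1 (chr10:13060504-13131694, plus strand), a zinc-finger transcription factor of the PLAG family, had 8.65, 13.2, 3.39 and 19.2 CPM in libraries 1 to 4, with a highest-to-lowest ratio of 5.67 and an adjusted p of 0.0847. Ndn (chr7:62346569-62350262, plus strand), which encodes necdin, a growth-restraining MAGE protein of neurons, had 3.55, 1.81, 1.06 and 2.58 CPM. Its highest library was library 1, not library 4, and its adjusted p was 1. Plagl1 therefore had the order of libraries seen for Peg3 and Igf2, and also for Dlk1, Meg3 and Rian, and Ndn did not.

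Cdkn1c (chr7:143458339-143461050, minus strand), which encodes the cyclin-dependent kinase inhibitor p57, is expressed from the maternal chromosome. It had 38.4, 32.4, 13.3 and 34.6 CPM in libraries 1 to 4, a mean of 29.7 ± 11.2 (SD, n = 4), and an adjusted p of 0.192. Libraries 1, 2 and 4 lay close together and library 3 apart, below them. An antisense gene, Gm44732, covers 30.7% of its exonic bases but had only 3 to 11 counts a library, against 301 to 941 for Cdkn1c. The strand setting of the counting is not given in the sources used here, so reads from overlapping antisense genes may be included.

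All 10 genes had their lowest CPM in library 3, and 7 had their highest in library 4, the exceptions being Ndn and Cdkn1c, highest in library 1, and H19, highest in library 2. These counts were the same with total counts or DESeq2 size factors. Of the 8 that passed the filter on low counts, 8 were lowest in library 3, where 29.2% of all tested genes were lowest, and 6 were highest in library 4, where 20.9% of tested genes were highest. Both held for the 6 genes Dlk1, Meg3, Rian, Igf2, Peg3 and Plagl1 and for 13.2% of tested genes. Scaling to the microglia markers shifted every gene by -0.23, 0.08, -0.07 and 0.22 in libraries 1 to 4 on the log2 scale. With it, 7 of the 8 were highest in library 4, Cdkn1c included, but so were 65.5% of all tested genes. The summed level of the 10 genes was 86.5, 102.9, 33.6 and 164.2 CPM in libraries 1 to 4. The median ratio of the highest to the lowest library was 5.27 over the 8 genes and 1.43 over all genes tested. The set was assembled with these values known, and nothing particular to it follows from the counts.

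**Figure D2:**
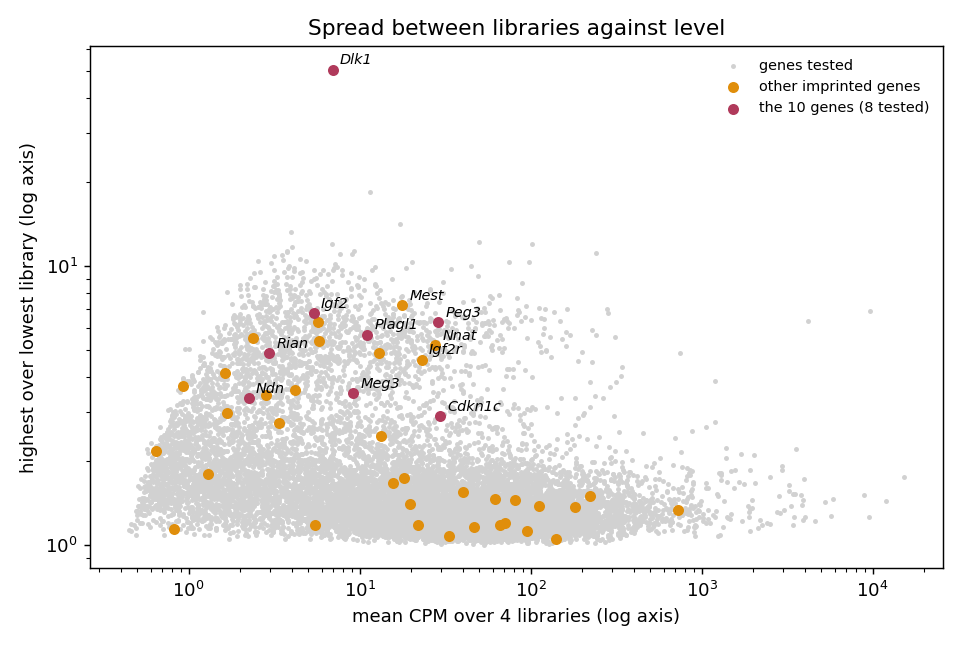
Ratio of the highest to the lowest library against mean CPM over the 4 libraries (both log axes) for each tested gene with a count in every library, with the tested imprinted genes coloured. Dlk1 lies at a ratio of 50.5, and the other imprinted genes of the set lie between 2.9 (Cdkn1c) and 6.78 (Igf2).

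Compared per kilobase of exon, Cdkn1c was the most abundant at 14.5 ± 5.5 CPM per kilobase (SD, n = 4), followed by Peg3 at 2.17 ± 1.41, Plagl1 at 1.42 ± 0.86 and Dlk1 at 1.23 ± 2.06. Igf2 (0.943), Ndn (0.609), Meg3 (0.509), Rian (0.163), H19 (0.051) and Mirg (0.0367) came below. The place of Igf2 is uncertain, because reads over the 62.8% of its exonic bases shared with Gm49394 may not have been counted. Its level per kilobase may then be too low. Only Cdkn1c was separated from its neighbour in this order by more than the spread, with its lowest library at 6.5 and the highest of Peg3 at 3.92. Every other pair of neighbours overlapped in range, although within libraries Peg3 was above Plagl1, Meg3 above Rian and Rian above H19 in 4 of 4. The place of Dlk1 rested on library 4, where its level was 4.32 CPM per kilobase, against 0.173, 0.344 and 0.0856 in libraries 1 to 3, and it exceeded Igf2 in 1 of the 4 libraries.

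Expressed relative to Peg3 in the same library, Plagl1 and Igf2 kept nearly fixed proportions. The per-kilobase ratio of Plagl1 to Peg3 was 0.703, 0.663, 0.698 and 0.627 in libraries 1 to 4, a 1.12-fold range. That of Igf2 to Peg3 was 0.394, 0.462, 0.409 and 0.439, a 1.17-fold range. Both ranges were narrow beside the 6.31-fold range of Peg3 itself. Meg3 to Peg3 spanned 1.94-fold, Cdkn1c to Peg3 2.76-fold and Ndn to Peg3 3.42-fold. Mest, an imprinted gene outside the set, spanned 1.74-fold relative to Peg3. Dlk1 to Peg3 was 0.11, 0.135 and 0.138 in libraries 1 to 3, and 1.1 in library 4. These pairs were compared after the values were seen, and the proportions were not tested. How many other genes kept such proportions to Peg3 was not counted.

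**Figure D3:**
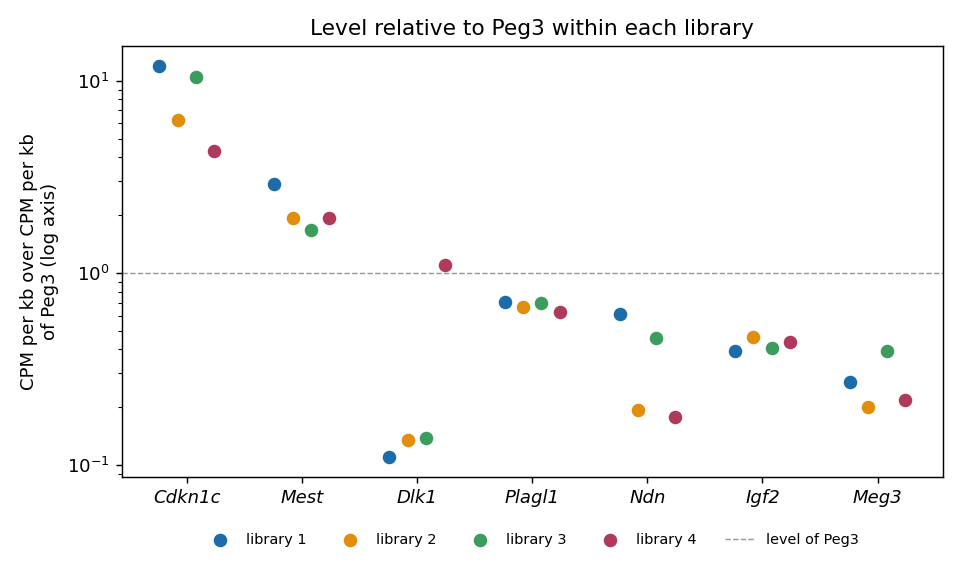
Level per kilobase of exon relative to that of Peg3 in the same library (log axis), with 1 point per library for 7 imprinted genes. Plagl1 and Igf2 form tight groups of points, while Dlk1 has 3 points between 0.11 and 0.138 and library 4 at 1.1.

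Markers of most other cell types were, like the imprinted genes, lowest in library 3. The order of the other libraries differed between the marker lists. The cells carried the microglial genes their label calls for: all 10 microglia markers were detected, with summed levels of 38010, 33787, 37969 and 31185 CPM in libraries 1 to 4. The 10 choroid plexus markers, also all detected, summed to 16245, 16228, 3378 and 22649 CPM, and library 3 was the lowest and library 4 the highest for each of the 10. Ttr, the transthyretin gene that defines this epithelium, had 11345, 10479, 2115 and 14562 CPM in them. The 6 ependymal markers, which mark the ciliated lining of the ventricles, summed to 56.4, 45.7, 15.6 and 85.1 CPM, the 16 meningeal fibroblast markers to 329.2, 322.7, 67.4 and 379.7 CPM, and the 10 endothelial markers to 904.2, 913.4, 210.7 and 779.3 CPM. The 10 pericyte and smooth muscle markers summed to 707.1, 670.4, 106.4 and 462.0 CPM. Library 3 was thus lowest in all 5 of these non-microglial lists, as it was for the imprinted genes, and library 4 was highest in the first 3. Of their members 10 of 10, 5 of 6, 10 of 16, 10 of 10 and 9 of 10 reached 1 CPM in all libraries, and none was at 0 throughout. Astrocyte markers, at 273.3, 218.3, 246.8 and 293.2 CPM, and neuron markers, at 25.3, 27.9, 17.5 and 28.9 CPM, had ranges of 1.34-fold and 1.65-fold. Erythroid markers, at 364.9, 174.5, 32.4 and 65.9 CPM, and oligodendrocyte markers, at 867.6, 473.3, 390.8 and 602.3 CPM, were highest in library 1. Library 3 was also the lowest for neuron, erythroid and oligodendrocyte markers, but not for astrocyte markers. The part of these cells in the levels of the imprinted genes was not tested.

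The genes were also divided by the choroid plexus sum of the same library, in an alternative added after the data were seen. The ratios between libraries became smaller for every gene except H19, which was at the counting floor, and the order of the libraries changed. The highest-to-lowest ratio became 1.9 for Peg3, 1.89 for Plagl1, 1.99 for Igf2, 2.28 for Rian, 2.75 for Meg3, 2.8 for Ndn and 2.57 for Cdkn1c, against 6.31, 5.67, 6.78, 4.87, 3.5, 3.36 and 2.9 in CPM. Library 3, the lowest for all 10 genes in CPM, was then the highest for 8 of the 10, and library 4 was the highest for Dlk1 and Igf2. The divisor itself was lowest in library 3, at 3378 CPM against 16228 to 22649 CPM in the others. A gene that varied little between libraries would therefore also become highest in library 3. The share of all genes that did so was not counted, so the change of order says nothing particular to these genes. The 8 genes include H19 and Mirg, which had only 2 counts each in library 3. Peg3, for example, had 12.9, 20.9, 24.5 and 23.0 parts per 10000 of the choroid plexus sum in libraries 1 to 4, and Meg3 had 4.75, 5.72, 13.0 and 6.8. The ratio of Dlk1 fell to 17.9, against 50.5 in CPM, with 0.603, 1.2, 1.43 and 10.8 parts per 10000. Over the endothelial sum the ratio was 1.77 for Cdkn1c, 2.58 for Plagl1, 2.89 for Peg3 and 29.0 for Dlk1, with library 3 the highest for 4 of the 10 genes and library 4 for 6. The endothelial sum, too, was lowest in library 3. The ratio of Dlk1 was 21.7 over the meningeal fibroblast sum and 61.5 over the microglia sum. The sums of the other marker lists, pituitary and ependyma among them, were not used as divisors.

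**Figure D4:**
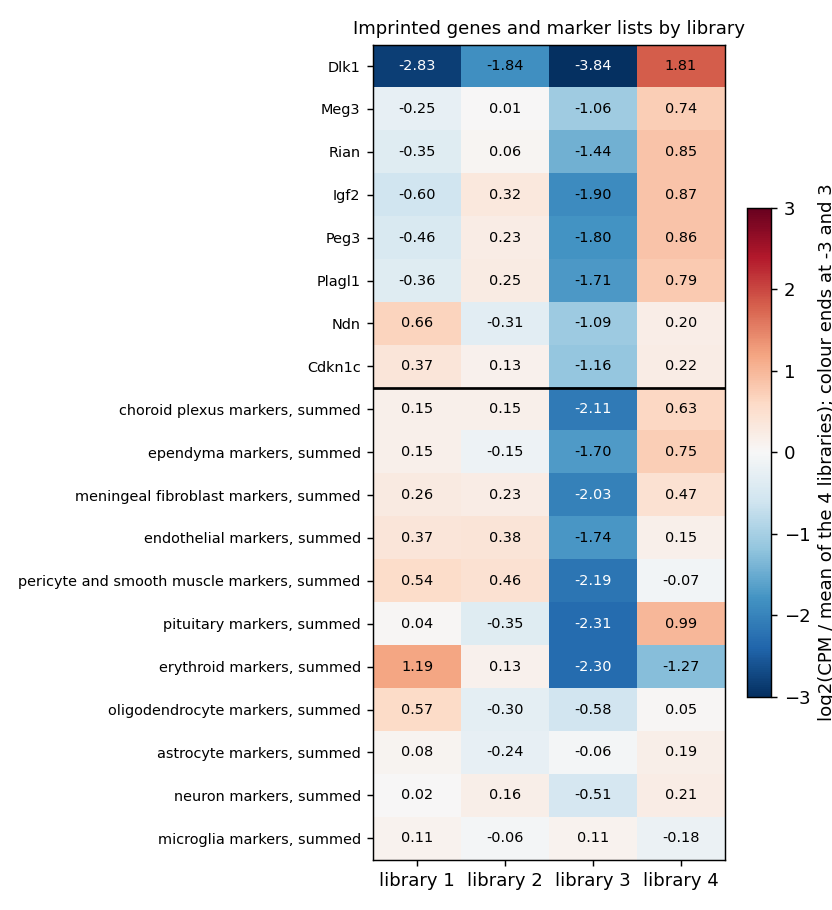
Level in each library relative to the mean of the 4 libraries, as log2, for 8 imprinted genes (above the line) and the summed markers of 11 cell types (below it). Library 3 is lowest for the imprinted genes and for every marker sum shown except those of astrocytes and microglia. Dlk1 lies at -3.84 to -1.84 in libraries 1 to 3 and at 1.81 in library 4.

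Dlk1 is known as a marker of endocrine cells, among them those of the pituitary, and of preadipocytes, so markers of those tissues were examined in the same libraries. The 18 pituitary markers summed to 16.8, 12.8, 3.3 and 32.5 CPM in libraries 1 to 4. Among them, Lhb, Fshb, Pou1f1, Gnrhr and Ghrhr had 0 counts in every library, and Gh and Prl had 1 count each over all libraries. The largest parts of the sum were Pcsk2, a prohormone convertase, at 6.89, 11.5, 1.94 and 15.2 CPM, and Chga, chromogranin A of secretory granules, at 5.38, 0, 0.088 and 13.7 CPM. Cga, the common subunit of glycoprotein hormones, had 28, 0, 0 and 35 counts in libraries 1 to 4. Pitx1, a pituitary transcription factor, had 11, 0, 0 and 17 counts, Tshb, the thyrotropin subunit, 6, 0, 0 and 6, and Lhx3, another pituitary transcription factor, 1, 0, 0 and 4. These 4 genes had counts in libraries 1 and 4 and none in libraries 2 and 3, and Cga and Chga were dispersion outliers in DESeq2. Dlk1 itself had 24 counts in library 1 and 45 in library 2. The part of pituitary RNA in the level of Dlk1 was not tested. The 14 hypothalamic markers summed to 7.1, 6.31, 3.74 and 8.73 CPM, with Pmch, Agrp, Crh, Cartpt, Sim1 and Otp at 0 counts. Of the 6 adipose markers, Adipoq, Plin1, Cfd and Lep had 0 counts, and the sum was 1.75, 2.03, 0.748 and 0.873 CPM, lower in library 4 than in libraries 1 and 2.

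Genes were also ranked by the likeness of their profile to that of Dlk1. Likeness was the distance between centred log2(CPM + 0.5) values over the 4 libraries, among 14111 genes. The nearest, at 1.81, was Hydin, a protein of the ciliary central apparatus, with 2.86, 5.74, 1.67 and 13.3 CPM in libraries 1 to 4. Cdhr3, a cadherin of ciliated epithelium, and Dnah10, an axonemal dynein, followed at 1.94 and 1.95, and Dnah3, another axonemal dynein, and Crocc2, a relative of rootletin, at 2.08 and 2.09. Col6a5, a collagen VI chain, Gm853, Ccdc187 and Shank2, a postsynaptic scaffold, lay between 2.04 and 2.09. The tenth, at 2.1, was Nnat, which encodes neuronatin and is itself imprinted. None of these lay close: the median distance over all genes was 3.63, and the 10 nearest genes had highest-to-lowest ratios of 5.21 to 10.4, against 50.5 for Dlk1. Of the imprinted set, Peg3 ranked at 46, Igf2 at 66, Plagl1 at 134, Rian at 209 and Meg3 at 325. Over 4 libraries many genes share an order, and with a pseudocount of 2, or with no filter on low counts, 6 of the 10 nearest genes stayed in the list.

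The ratio of library 4 to the highest other library, the measure on which Dlk1 was picked, was also taken for every gene. Among 13673 genes with a mean of at least 1 CPM, 75 were at least 2-fold higher in library 4 than in any other library and 3 at least 4-fold. Bpifa1, a secreted protein of airway and nasal epithelium, led with 3, 0, 0 and 481 counts in libraries 1 to 4. Dlk1 was the second at 12.6-fold and Gm21887 the third at 7.11-fold, with 16, 9, 11 and 117 counts. Dnah10 at 3.6-fold, Jhy at 3.48, Col6a5 at 3.29, Ceacam16 at 3.22, Crocc2 at 3.17, Ankub1 at 2.9 and Fam216b at 2.8 completed the list of 10, and 3 of these, Dnah10, Col6a5 and Crocc2, were also among the genes nearest to Dlk1.

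**Figure D5:**
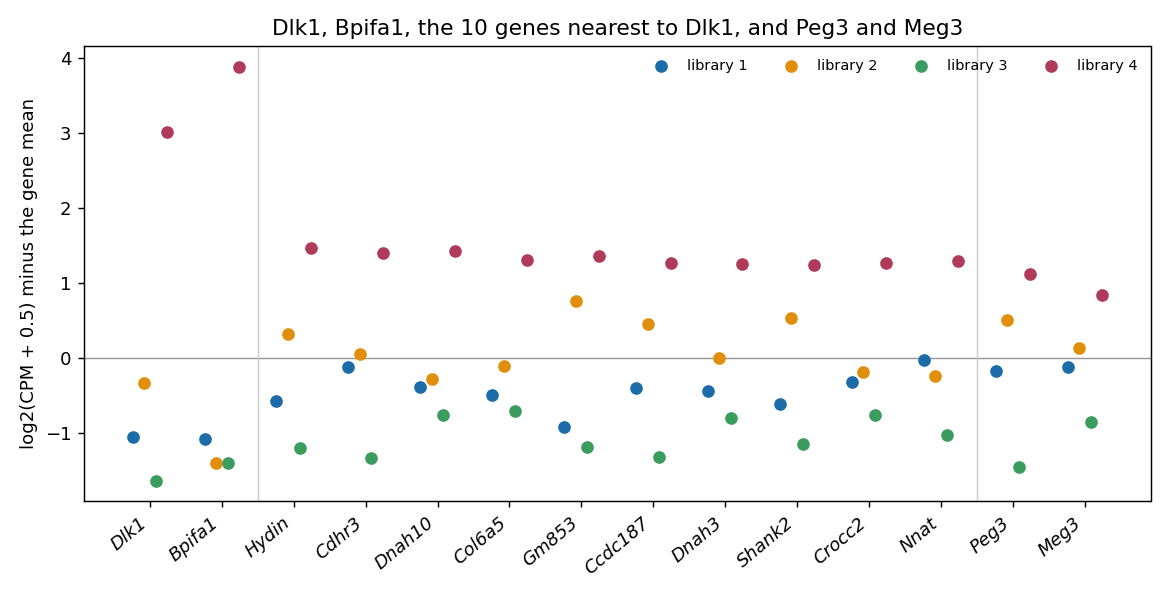
Centred log2(CPM + 0.5) of Dlk1, Bpifa1, the 10 genes nearest to Dlk1, Peg3 and Meg3, with 1 point per library. In Dlk1 and Bpifa1 library 4 lies far from the other 3 libraries, and in the 10 nearest genes, as in Peg3 and Meg3, the gap is smaller.

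Imprinted genes outside the set were counted in the same libraries. Of 54 such genes, 35 were tested, 28 reached 1 CPM in all 4 libraries, and 6 (Phlda2, Zfp264, Magel2, Snurf, Klf14 and Calcr) had 0 counts. Their summed level was 1917, 2165, 2086 and 2226 CPM in libraries 1 to 4. Library 3 was the lowest for 20 of the 35, beside 29.2% of all tested genes. Library 4 was the highest for 10 of the 35, beside 20.9% of all tested genes. Their median highest-to-lowest ratio was 1.67 over the 35 tested, beside 1.43 over all genes tested. The highest in CPM were Gnas, which encodes the stimulatory G protein alpha subunit, at 732.7 ± 92.2, Gatm, an enzyme of creatine synthesis, at 222.0 ± 38.1, and Ppp1r9a, an actin-binding scaffold, at 182.1 ± 25.3 (SD, n = 4 each).

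The spread of 3 of the 35 passed the threshold in the edgeR goodness of fit, beside the 3.28% of all genes. At an unadjusted p under 0.05 in that fit, 7 of the 35 passed, beside 9.57% of all genes. Mest, a paternally expressed hydrolase-like protein, had 18.0, 19.4, 4.09 and 29.6 CPM in libraries 1 to 4 (adjusted p = 0.00435). Igf2r, the maternally expressed receptor that clears IGF2, had 17.5, 27.3, 8.45 and 39.1 CPM (adjusted p = 0.0167). Nnat had 22.8, 19.5, 11.1 and 57.5 CPM (adjusted p = 0.000763). All 3 had their highest value in library 4 and their lowest in library 3. Without library 4 none of the 3 passed, with adjusted p-values of 0.12, 0.455 and 1. Without library 3 only Nnat did (0.0045, against 1 for Mest and 0.398 for Igf2r), and Igf2r also failed without library 2 (0.0737). Over the choroid plexus sum, the ratio of the highest to the lowest library became 1.18 for Mest, 2.33 for Igf2r and 2.73 for Nnat. Library 3, where that sum was itself lowest, was then the highest for Igf2r and Nnat, and library 4 for Mest.

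Genes that maintain imprints were also counted. Of 15 such genes 13 were tested and 0 passed in the edgeR goodness of fit, with 0 at an unadjusted p under 0.05, 0 in the quasi-likelihood variance test and 0 in DESeq2. Since 3.28% of all genes passed, and 9.57% before adjustment, so few genes allow no reading from the zeros. Trim28, the corepressor recruited by ZFP57, had 180.3 ± 8.52 CPM, Dnmt3a, a de novo DNA methyltransferase, 166.3 ± 28.7 CPM, and Zfp445, a zinc-finger protein that protects imprints, 164.7 ± 21.5 CPM (SD, n = 4 each). Dnmt3l and Ctcfl, genes of germ cells, had 0 counts.

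Dlk1 is related to the ligands of Notch receptors, whose genes were read beside it. Of 15 tested genes of the Notch pathway 2 passed in the edgeR goodness of fit, beside the 3.28% of all genes, and 0 passed in the quasi-likelihood variance test or in DESeq2. At an unadjusted p under 0.05 in the edgeR fit, 9 of the 15 passed, beside 9.57% of all genes. Notch3, the receptor of mural cells, had 45.7, 60.3, 8.98 and 38.5 CPM in libraries 1 to 4 (adjusted p = 1.9e-05), and Hey1, a Notch target, had 14.2, 13.3, 2.16 and 11.1 CPM (adjusted p = 0.046). Neither was highest in library 4, and without library 3 the adjusted p of both was 1. Hey1 also failed without any 1 of the other libraries, at 0.0963, 0.175 and 0.0673 without libraries 1, 2 and 4. Notch2 at 230.6 ± 41.0 CPM, Notch1 at 96.6 ± 22.3 and the ligand Jag2 at 50.4 ± 19.3 (SD, n = 4 each) did not pass. Dlk2, the paralogue of Dlk1, had at most 0.245 CPM and no count in library 4.

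Igf2 acts within the IGF system, whose receptors and binding proteins were read beside it. Of 12 tested genes, 4 passed in the edgeR goodness of fit, beside the 3.28% of all genes, and 0 in the quasi-likelihood variance test or in DESeq2. At an unadjusted p under 0.05 in the edgeR fit, 5 of the 12 passed, beside 9.57% of all genes. Igfbp2 had 35.2 CPM in library 3 and 168.2 to 247.7 CPM in the others (adjusted p = 2.5e-08), and it also belongs to the meningeal fibroblast list. Igfbp7 had 79.6, 68.1, 12.8 and 56.9 CPM (adjusted p = 4.48e-06), Igfbp3 18.5, 13.4, 2.51 and 11.3 CPM (0.0265), and Igfbp5 21.3, 20.7, 6.78 and 34.9 CPM (0.0225). All 4 were lowest in library 3, and none passed without it (adjusted p = 1 for Igfbp2, Igfbp3 and Igfbp7 and 0.888 for Igfbp5). Igfbp3 also failed without libraries 1 and 2 (0.153 and 0.0846), and Igfbp5 without libraries 2 and 4 (0.0572 and 0.41). Igfbp4 at 131.5 ± 14.7 CPM and the insulin receptor Insr at 104.3 ± 14.6 (SD, n = 4 each) did not pass.

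The relatives of Cdkn1c and Plagl1 were counted too. None of the 6 other cyclin-dependent kinase inhibitors passed in the edgeR goodness of fit, with 1 at an unadjusted p under 0.05 and 0 in both the quasi-likelihood test and DESeq2, counts close to the 3.28% and 9.57% of all genes. Cdkn1b, which encodes p27, had 115.9 ± 6.9 CPM, Cdkn1a, which encodes p21, 60.0 ± 10.8 CPM, and Cdkn2c 8.26 ± 1.44 CPM (SD, n = 4 each). Cdkn1b ranged over 1.15-fold between libraries, and Cdkn1c over 2.9-fold. Plagl2 had 53.6 ± 7.93 CPM and Plag1 1.91 ± 0.07 CPM, and neither passed, also at an unadjusted p under 0.05 or in the quasi-likelihood test or DESeq2.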

How the data were processed

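The deposited values are raw read counts by Ensembl gene identifier for the 4 libraries. The submitters' processing notes name GRCm38, featureCounts 1.6.5, STAR 2.7.2b and bcl2fastq 2.20.0.422. Which annotation release was used, how strand was set and how multiply mapped reads were handled is not given in the sources used here. Of 55471 identifiers, 55230 matched GENCODE M21, which gave symbols, coordinates and exonic lengths. Libraries 1 to 4 held 24412573, 23036202, 23585261 and 24487418 counts. No pair of libraries agreed within sampling noise (chi-square per degree of freedom 20.7 to 100).

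CPM were computed from the counts with TMM factors of 1, 1.01, 0.963 and 1.03 in edgeR 4.0.16 (R 4.3.3). Spread between libraries was tested over the 14112 genes kept by filterByExpr, as the deviance of an intercept-only negative binomial fit with trended dispersion against chi-square on 3 degrees of freedom, with Benjamini-Hochberg adjustment and a threshold of 0.05. It was past that threshold for 463 genes, and for 1350 at an unadjusted p under 0.05. In simulated counts of the same 14112 genes it found 8 of 100 genes raised 2-fold in 1 library and 70 of 100 raised 4-fold, with 2 false calls. These counts were drawn with the trended dispersion that the test itself assumes, so few false calls were built in. The simulation left out variation of genes around that trend and cannot tell how many of the calls in the data are false. Alternatives were DESeq2 1.42.0 size factors and dispersion outliers, total counts, scaling to microglia markers, no filter, a pseudocount of 2 in place of 0.5, a quasi-likelihood variance test, and leaving out each library. The members and gene lists were chosen with earlier results of these data known. Genes named are the members, the genes of each list past the threshold or with the 3 highest means, list genes at 0 counts, the 10 genes nearest to Dlk1, and the 10 with the largest ratio of library 4 to the highest other library. Other genes with values (Ttr, Gh, Prl, Dlk2 and cluster neighbours) were chosen after their values were seen.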

Additional observations from a re-analysis of the deposited data

Results flagged for a closer look

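Among 73 values screened for a library far from the other 3, 11 stood out, where chance flags about 5% of such groups of 4. Of these, 8 were in library 4, and all 8 had been selected for their height in that library or their likeness to Dlk1, so they are a restatement of that selection. They were Dlk1 at 24.4 CPM, Bpifa1 at 19.1, Dnah10 at 11.4, Fam216b at 7.42, Crocc2 at 6.43, Gm21887 at 4.64, Ankub1 at 2.94 and Ceacam16 at 2.22. The other 3 were low in library 1. Gnas had 595.9 CPM there and 761.0 to 794.1 CPM in the other libraries, Ppp1r9a had 144.4 CPM there and 190.8 to 198.0 in the others, and Notch2 had 169.4 CPM there and 248.1 to 256.2 in the others. None of these 3 passed the edgeR test of spread.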

How the results depend on the processing

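No paired analysis was possible because all 4 libraries belong to 1 group. The count of genes past the spread threshold, 463 with all libraries, was 0 in the quasi-likelihood variance test (658 at an unadjusted p under 0.05), 9 as DESeq2 dispersion outliers, and 106 to 425 with each library left out, lowest without library 3 (276 without library 2, 258 without library 4). The count of other imprinted genes, 3, was 0 in the quasi-likelihood test and 0 in DESeq2, and 0 to 3 with each library left out. The count among the set besides Dlk1, 1, was 0 in both of those and 0 to 1 with each library left out, at 0 without library 3 and without library 4. That fit on fewer libraries has fewer degrees of freedom. Of the 10 genes nearest to Dlk1, 6 stayed with a pseudocount of 2 and 6 with no filter on low counts. The cause of these shifts was not tested. The other 99 recomputed values of the main results kept their direction and stayed within 1.5 times or 1 SD of the value given. Many of these are means with 1 of the 4 libraries left out. Such a mean cannot move by 1 SD, so its staying within that bound says nothing of robustness. The mean of Dlk1, for example, was counted as within 1 SD at 1.14 CPM without library 4, against 6.96 with all libraries. Among the adjusted p-values and ratios of single genes, 293 recomputed values kept their side of the threshold or their size, 32 p-values no longer passed and 14 ratios moved, 12 of these 14 under division by a marker sum. Division by the choroid plexus sum, an alternative chosen after seeing the data, made library 3, the lowest in CPM, the highest for 8 of the 10 genes. That sum was itself lowest in library 3, so a gene that varied little would also become highest there. Scaling to microglia markers moved the highest library of Cdkn1c to library 4. Depth limits Mirg and H19, with 2 to 11 counts a library.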
